A study of Mus musculus with 6 samples.

Results

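Interferon-stimulated genes were followed in spleen cells of wild type (WT) mice and of mice without the microRNA cluster miR-144/451 (KO). The members are 44 genes named by symbol as typical interferon-induced genes, and each had to reach a mean of at least 10 raw counts over the 6 libraries. All 44 symbols matched a gene in the files, all 44 passed that minimum, and they stand among 12999 genes that pass it and 44678 gene identifiers in all. They were sorted by role into 17 antiviral effectors, 7 nucleic acid sensors, 11 genes of signaling and regulation, 5 interferon-inducible GTPases and 4 other induced genes.

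The RNA came from spleen cells that the labels call CD8a+ leukocytes, with no treatment given to either group, and each genotype had 3 libraries. Per the study's methods both genotypes are on the C57BL/6J background, and the KO mice lack a short genomic segment that holds both microRNA precursors. The same methods give an age of 8 to 12 weeks for the animals. Nothing in the labels says that libraries of a group came from separate animals, so p-values measure the spread between these libraries, which may be partly technical.

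Interferons are secreted proteins that cells release when they sense foreign nucleic acid or, for interferon gamma, when T cells and natural killer cells are activated. Type I interferons bind the Ifnar1 and Ifnar2 receptor and act through JAK kinases on a complex that contains Stat2 and Irf9 and binds the interferon-stimulated response element (ISRE) of its target genes. Interferon gamma acts on genes through another element, the gamma-activated site (GAS). Resting lymphoid tissue keeps a basal level of this programme, and the products range from enzymes that block virus growth to sensors and to brakes on the pathway itself.

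Total counts lay between 8143971 and 8876570 per library, and 3 counts corresponded to between 0.342 and 0.372 CPM, the usual unit of counts scaled to a common library total, here with TMM factors. This limit covers counting error only. Mir144 and Mir451a had 0 counts in all 6 libraries, so the deletion could not be checked in these mRNA libraries. Cd8a was high in all libraries, between 476 and 1041 CPM, but markers of other spleen cells were present as well. The summed CPM of 5 CD8 T cell markers was 1975, 2693 and 2605 in WT libraries 1 to 3 and 1777, 1287 and 2594 in KO libraries 1 to 3. Markers of B cells summed to 1334 to 2328 in WT and 1151 to 2697 in KO, and those of neutrophils to 254 to 1056 and 415 to 1306. The 8 red pulp macrophage markers summed to 646, 445 and 418 CPM in WT and to 1218, 1545 and 557 in KO. The 7 markers of CD8a+ dendritic cells (cDC1) summed to 217 to 231 in WT and 285 to 296 in KO, without overlap. Of these lists, 7 of the 8 macrophage markers and 4 of the 7 cDC1 markers were higher in KO at an unadjusted p under 0.05 in edgeR, as were Csf1r of the monocyte list and Klra8 of the natural killer cell list, where 4.14% of all tested genes were. Sums were 1051 to 1717 in WT and 1077 to 1777 in KO for monocytes, 288 to 336 and 261 to 363 for plasmacytoid dendritic cells, 78.7 to 231 and 117 to 217 for natural killer cells, and 84.5 to 162 and 75.4 to 183 for CD4 T cells. No marker of any list passed the adjusted threshold. None of the markers in these 10 lists was at 0 in every library. In such bulk RNA, fewer cells of a type and less RNA per cell cannot be told apart.

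All 44 genes were expressed, at levels that differed widely. Mean levels ran from 7.15 CPM for Ifi44 to 590.3 CPM for Sp100, with a median of 55.2 CPM, so every member lay far above the limit of 3 counts. Per kilobase of exon, which allows genes to be compared, Ifi27l2a, a small mitochondrial membrane protein, had the highest mean level at 244 CPM per kb. Bst2 (tetherin), which holds budding viruses at the cell surface, followed at 79.2, and Sp100, a component of nuclear bodies, at 78.1. The levels of Bst2 and Sp100 did not differ beyond the spread between libraries. The GTPases Ifi47 and Igtp came next at 70.4 and 62.4 CPM per kb, and Samd9l, an inhibitor of viral translation, at 60.2. The lowest levels per kb were those of Ifi44 at 1.17, Mx2 at 3.40 and the RNA sensor Ifih1 (MDA5) at 4.59. Members of 1 family differed. Within the IFIT family, RNA-binding proteins that block foreign mRNA, Ifit3 was at 31.5, Ifit2 at 13 and Ifit1 at 10.2 CPM per kb.

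**Figure D1:**
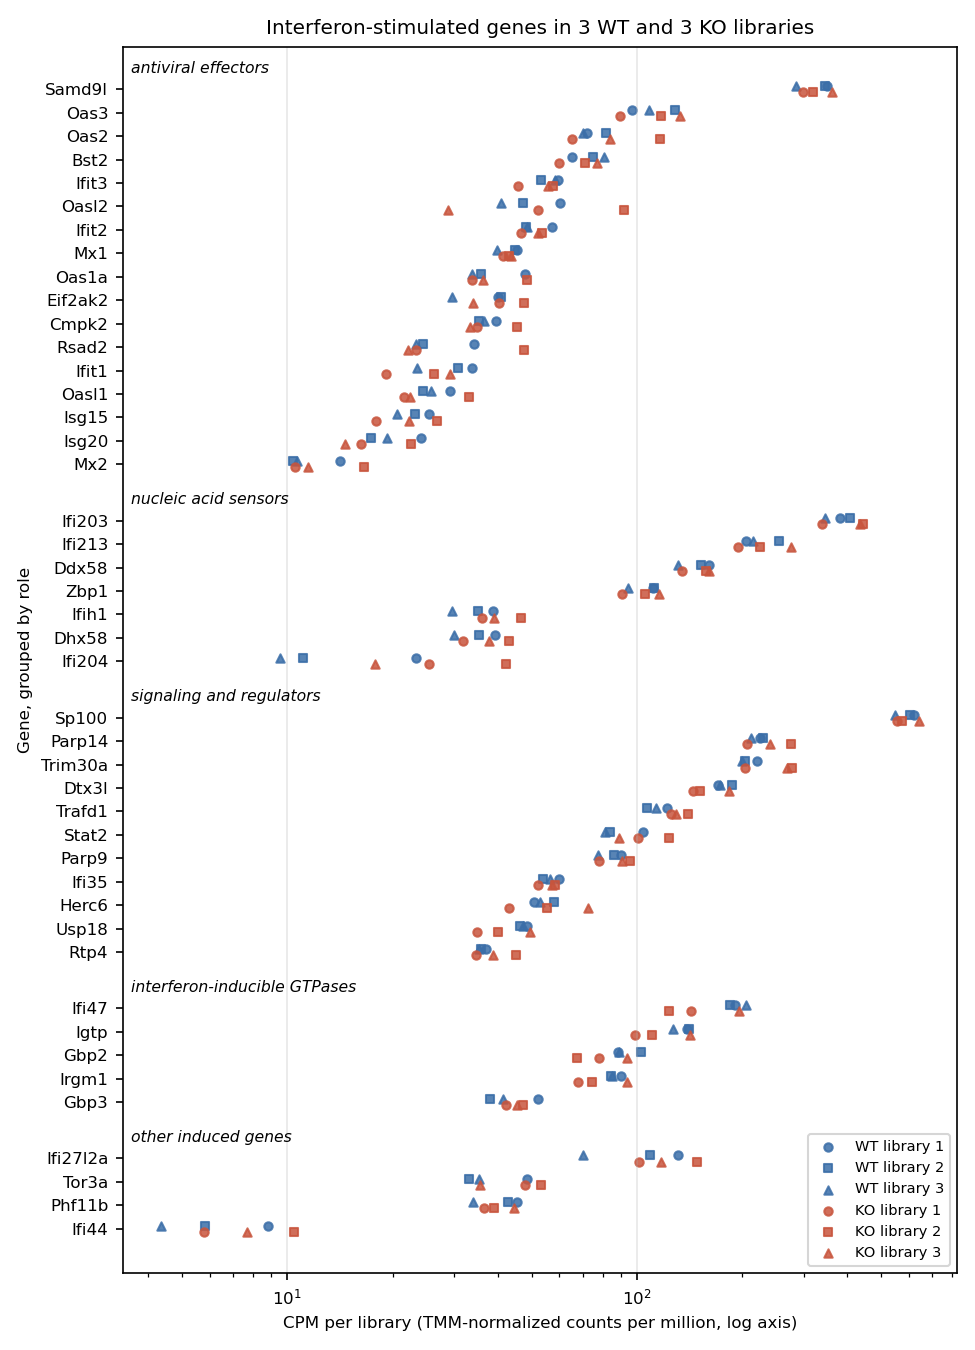
Level of each of the 44 interferon-stimulated genes in each library, in CPM on a log axis, grouped by role and sorted by mean level, with WT libraries in blue and KO libraries in red and marker shape giving the library number. For 43 of the 44 genes the blue and red points overlap in range, and they do not for Trafd1, where KO lies above WT.

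The ligands themselves were nearly silent. Of 17 interferon ligand genes, Ifnb1, the 10 Ifna genes, Ifne, Ifnl2 and Ifnl3 were listed at 0 in all 6 libraries, which allows at most 0.372 CPM in the shallowest library. Ifnk and Ifnz were at or below 0.458 CPM in each library. Ifng, the interferon of T cells and natural killer cells, was measurable at 26.6, 17.8 and 21.8 CPM in WT and 13.3, 25.0 and 23.8 CPM in KO. Its log2 fold change of KO over WT was -0.09, with a 95% interval from -0.68 to 0.49 (adjusted p = 0.951 by the quasi-likelihood test of edgeR, Benjamini-Hochberg adjusted).

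Both chains of the type I interferon receptor were expressed. Ifnar1 had a mean of 156 ± 6.88 CPM in WT and 153 ± 14.6 CPM in KO, and Ifnar2 had 81.7 ± 3.35 and 75.7 ± 2.66 CPM (SD, n = 3 each). Irf9, the DNA-binding partner of Stat2, was at 128 ± 17.8 CPM in WT and 141 ± 8.68 CPM in KO (SD, n = 3). Ifnlr1, the receptor chain specific to interferon lambda, was the lowest of the 6 receptor genes at 1.66 ± 0.58 CPM in WT and 1.73 ± 0.83 CPM in KO (SD, n = 3). None of these 4 genes had an unadjusted p under 0.05.

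Motifs were searched in RefSeq promoter windows (GRCm38.p6) of 250 bases before and 50 after each start, which 32 of the 44 genes have. An ISRE-like match, GAAA then any 2 bases then GAAA on either strand, was found in 19 of the 32 genes (59.4%), against 4.03% of the 9563 tested genes with a window and 3.99% of all 27025 genes of the table. By role it was found in 8 of 14 effectors, 4 of 4 sensors, 2 of 7 regulators, 4 of 5 GTPases and 1 of 2 other genes. A GAS-like match, TTC then any 3 bases then GAA on either strand, was found in 7 of the 32 (21.9%), against 8.46% of the tested genes. The motifs can overlap, as they do in Bst2, and 4 genes held both. The genes are known interferon targets, so the shared motif describes the list and says nothing of the KO. Of 22 ISRE-like clusters (overlapping matches joined), 16 lay within 150 bases before the start and 4 after it. The window of 250 bases before and 50 after limits where they could lie, and positions in other promoters were not counted.

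The windows of 10 genes are shown because they include at least 1 gene of each role and show how the element repeats. Capitals mark the ISRE-like match or overlapping matches, which read TTTC, any 2 bases, TTTC where they lie on the opposite strand. Each is written 5′ to 3′ on the gene's strand.
Isg15, chr4:156200871-156200900, minus strand: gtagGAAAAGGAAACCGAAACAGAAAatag
Oas1a, chr5:120907523-120907552, minus strand: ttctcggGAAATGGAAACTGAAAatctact
Ifit1, chr19:34640775-34640804, plus strand: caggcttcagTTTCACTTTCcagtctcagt
Rsad2, chr12:26456553-26456582, minus strand: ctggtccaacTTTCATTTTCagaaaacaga
Ifih1, chr2:62646206-62646235, minus strand: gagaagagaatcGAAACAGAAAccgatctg
Stat2, chr10:128270266-128270295, plus strand: cgcaccctggTTTCAGTTTCctttccctag
Gbp2, chr3:142620594-142620623, plus strand: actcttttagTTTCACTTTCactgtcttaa
Igtp, chr11:58199512-58199541, plus strand: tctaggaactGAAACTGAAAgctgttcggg
Irgm1, chr11:48871428-48871457, minus strand: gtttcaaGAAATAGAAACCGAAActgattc
Phf11b, chr14:59341361-59341390, minus strand: cacatttagaGAAAAAGAAActagaaacta

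Isg15 held 3 overlapping matches, beginning 78 bases before the start, and Oas1a and Irgm1 held 2 each, beginning 20 and 30 bases before it. In Ifih1 the match lay after the start, beginning 32 bases past it. Ifit1 held another match nearer to its start, 85 bases before it. Igtp also held a GAS-like match that began 45 bases before its start.

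No interferon-stimulated gene was called different between KO and WT. At an adjusted p under 0.05 in edgeR's quasi-likelihood test, 0 of 44 passed, with 0.0307% of the 13024 tested genes passing (4 genes), and the smallest adjusted p of a member was 0.786. DESeq2 and limma voom also called 0 of the 44. At an unadjusted p under 0.05, 2 members were higher in KO, Trafd1 and Ifi204, where 4.14% of all tested genes passed in that direction. No member was lower, where 2.11% of all genes passed. Fitted changes were above 0 for 27 members and below 0 for 17, with a median log2 fold change of 0.03, beside 0.003 over all tested genes. The 95% interval of the change lay within a 2-fold change either way for 41 of the 44 genes and within 1.5-fold for 33. The exceptions to the 2-fold bound were Ifi204, Oasl2 and Ifi44, with upper limits of 1.88, 1.05 and 1.08 on the log2 scale. The libraries of KO and WT were fully separated for 1 of 44 genes, Trafd1, as they were for 11.5% of all tested genes.

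**Figure D2:**
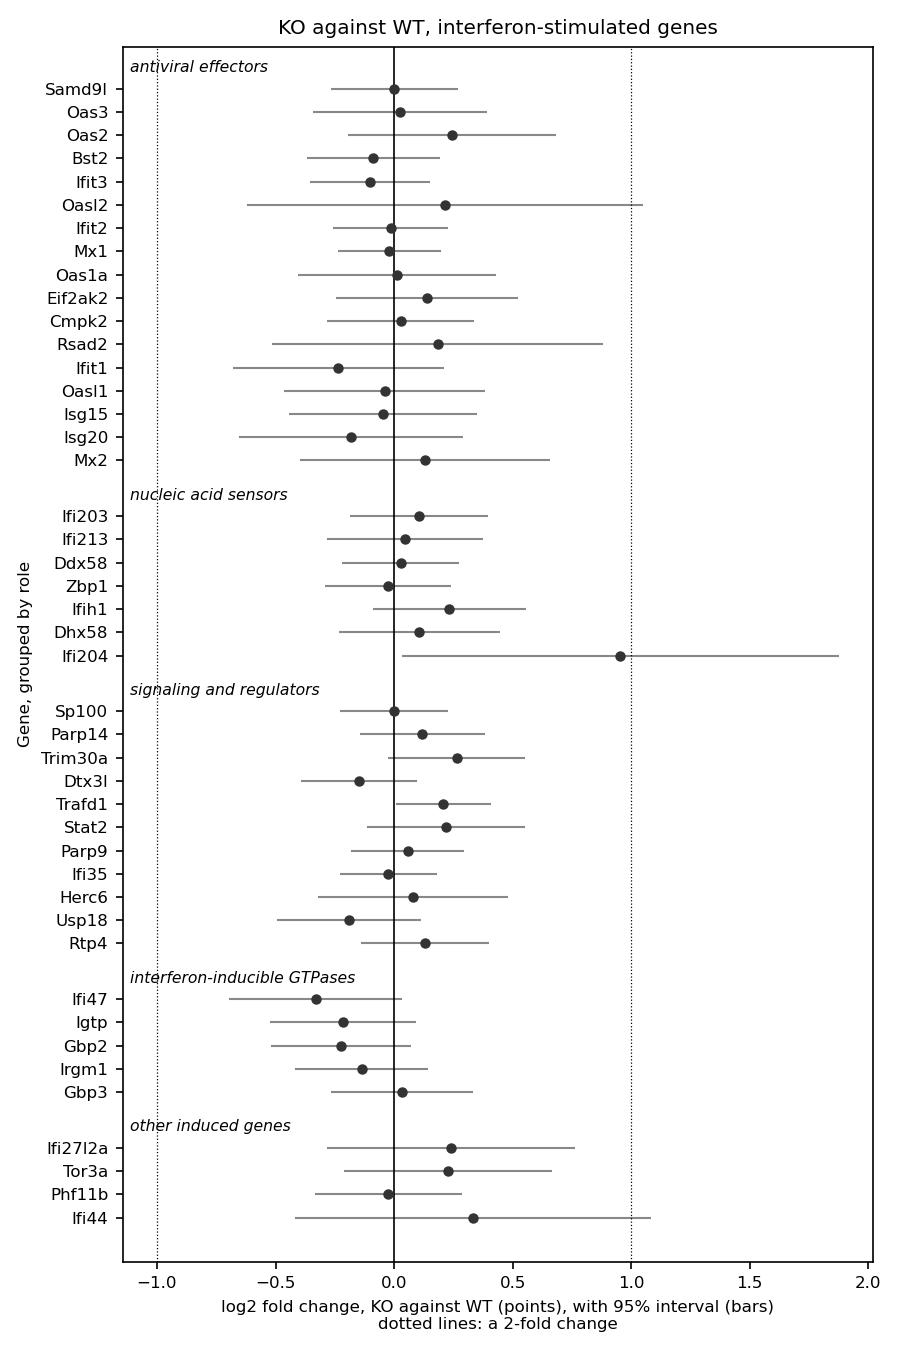
Fitted log2 fold change of KO over WT for the 44 genes (points) with its 95% interval (bars), from edgeR, grouped by role; the dotted lines mark a 2-fold change. The intervals of Ifi204 and Trafd1 lie above 0, those of the other 42 genes include 0, and 4 of the 5 GTPases have points below 0.

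Antiviral effectors showed no common direction. Their median log2 fold change was 0.00, with 9 of 17 fitted above 0. Isg15, a ubiquitin-like protein that is attached to newly made proteins, was at 25.4, 23.2 and 20.6 CPM in WT and 17.9, 26.8 and 22.3 CPM in KO. Its values overlapped fully, with KO library 1 lowest and KO library 2 highest. Mx1, a GTPase, was the steadiest effector, at 45.5, 44.7 and 39.7 CPM in WT and 41.4, 43.2 and 43.6 CPM in KO. Its interval for the change ran from -0.24 to 0.20 on the log2 scale. Ifit1 was at 33.8, 30.7 and 23.5 CPM in WT and 19.2, 26.3 and 29.2 CPM in KO, with an interval from -0.68 to 0.21.

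Oasl2 and Rsad2 varied most among the effectors. Oasl2, of the oligoadenylate synthetase family that senses double-stranded RNA, was at 60.5, 47.2 and 40.8 CPM in WT and 52.1, 91.8 and 28.7 CPM in KO. KO library 2 was highest and KO library 3 lowest of all 6, a 3.19-fold difference within 1 genotype. Rsad2 (viperin), which makes a chain-terminating nucleotide, was at 34.2, 24.4 and 23.3 CPM in WT and 23.4, 47.6 and 22.2 CPM in KO. Here too KO library 2 stood alone. The fitted log2 fold changes were 0.21 (SE 0.36) for Oasl2 and 0.18 (SE 0.30) for Rsad2, and without KO library 2 they became -0.29 and -0.26. Cmpk2, the neighbour of Rsad2 on chromosome 12, was at 39.5, 35.4 and 36.6 CPM in WT and 35, 45.3 and 33.3 CPM in KO, again highest in KO library 2. Samd9l had the highest CPM of the effectors without regard to length, at 349.6, 344 and 286 CPM in WT and 299, 319 and 363 CPM in KO. Its log2 fold change was 0.00 (SE 0.12, adjusted p = 0.999 by edgeR with Benjamini-Hochberg adjustment).

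The nucleic acid sensors were fitted above 0 in 6 of 7 cases, with a median log2 fold change of 0.10. Ifi204, a cytosolic DNA sensor of the PYHIN family on chromosome 1 (173747293 to 173766943, minus strand, GRCm38), had the largest fitted change of all members. It was at 23.3, 11.1 and 9.55 CPM in WT and at 25.4, 42.1 and 17.9 CPM in KO. KO library 3 lay below WT library 1, so the groups overlapped, and the highest library was 4.41-fold above the lowest. The log2 fold change was 0.95 (SE 0.40, 95% interval 0.03 to 1.88), with an unadjusted p of 0.0441 and an adjusted p of 0.786 by edgeR with Benjamini-Hochberg adjustment. It lay between 0.56 (without KO library 2) and 1.46 (without WT library 1) with each library left out in turn, and it was 0.54 in a fit with 1 covariate for the level of B cell, monocyte and dendritic cell markers. Ifi204 and the red pulp macrophage markers were both highest in KO libraries 2 and 1, and among WT libraries in library 1. Marker sums of B cells, neutrophils, plasmacytoid dendritic cells and CD4 T cells were also highest in these KO libraries and this WT library. The part of any of these cells in the difference was not tested.

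Ifi204 shares 34.0% of its 31-base words with other genes, most with Ifi211, another PYHIN gene that is no member, so the counting could have divided reads between them. Ifi211 was at 17, 8.1 and 11.2 CPM in WT and 17.6, 20.6 and 15.3 CPM in KO, with a log2 fold change of 0.56 (95% interval -0.06 to 1.18). The more abundant PYHIN genes had fitted changes nearer to 0. Ifi203 was at 382, 406 and 345 CPM in WT and 338, 444 and 435 CPM in KO, a log2 fold change of 0.10 (SE 0.13, adjusted p = 0.893 by edgeR with Benjamini-Hochberg adjustment). Left-out libraries moved this value to between 0.03 (without WT library 3) and 0.20 (without KO library 1). Ifi213 had a mean of 225 ± 26.7 CPM in WT and 233 ± 41.3 CPM in KO (SD, n = 3). Ifi203 and Ifi213 share 21.6% and 26.5% of their words with other genes, Ifi213 mostly with Ifi208.

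The RNA sensors Ddx58 (RIG-I) and Ifih1 (MDA5) and their regulator Dhx58 (LGP2) differed in level per kb of exon. Their means were 21.2, 4.59 and 11.1 CPM per kb. Ifih1 was at 38.8, 35 and 29.5 CPM in WT and 36.1, 46.6 and 38.9 CPM in KO, with an interval for the log2 fold change from -0.09 to 0.56. Ddx58 was at 160.5, 153 and 131 CPM in WT and 135, 158 and 160.5 CPM in KO. Its interval was narrower, from -0.22 to 0.28. Zbp1, a sensor of Z-form nucleic acid, had means of 106 ± 10.2 CPM in WT and 104 ± 12.6 CPM in KO (SD, n = 3).

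Among the genes of signaling and regulation, 8 of 11 were fitted above 0, with a median log2 fold change of 0.08. Trafd1, a zinc finger protein that restrains innate signaling, lies on chromosome 5 (121371725 to 121385632, minus strand, GRCm38) and had the only separated groups. It was at 122, 107 and 113 CPM in WT and at 125, 140.0 and 130 CPM in KO. The gap between the highest WT library and the lowest KO library was small beside the level. The log2 fold change was 0.21 (SE 0.09, 95% interval 0.01 to 0.41), with an unadjusted p of 0.0430 and an adjusted p of 0.786 by edgeR with Benjamini-Hochberg adjustment. Its exons overlap those of annotated genes on the opposite strand over 385 bases, and whether the counting used strand is not given in the sources used here.

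Trim30a, a ubiquitin ligase that limits inflammatory signaling, was at 220.1, 204 and 199.8 CPM in WT and 204, 277 and 268 CPM in KO. KO libraries 2 and 3 lay above all of WT and KO library 1 within it, and the interval of the log2 fold change was -0.02 to 0.55. Stat2, the signal carrier specific to type I and type III interferons, was at 104, 83.9 and 81.2 CPM in WT and 101, 124 and 88.6 CPM in KO. Usp18, a protease that removes Isg15 and silences the receptor, was at 48.4, 46.4 and 47.3 CPM in WT and 34.8, 40.2 and 49.5 CPM in KO, with an interval of -0.49 to 0.11. KO libraries 1 and 2 were low for Usp18, and KO library 3 was the highest of all 6.

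Sp100 had the highest CPM of the regulators. Parp14 was among the 4 members with the highest CPM, but per kb of exon it was at 24.9, below Trim30a at 55.7. Sp100 was at 619, 604 and 546 CPM in WT and 556, 573 and 642 CPM in KO, with a log2 fold change of 0.00 (SE 0.10, adjusted p = 0.997 by edgeR with Benjamini-Hochberg adjustment). Parp14, an ADP-ribosyltransferase, was at 225, 229 and 213 CPM in WT and 207, 277 and 240.3 CPM in KO. Its log2 fold change was 0.12 (SE 0.11, adjusted p = 0.871 by edgeR with Benjamini-Hochberg adjustment), and it lay between 0.0092 (without KO library 2) and 0.20 (without KO library 1) with each library left out. Parp9 and Dtx3l, partners in an ADP-ribosylation and ubiquitin complex, overlap by 458 bases on opposite strands. Parp9 had means of 84.6 ± 6.51 CPM in WT and 88.0 ± 8.94 CPM in KO, and Dtx3l had 177 ± 8.85 and 160 ± 20.7 CPM (SD, n = 3 each). The remaining regulators, Herc6, Rtp4 and Ifi35, had log2 fold changes of 0.08, 0.13 and -0.02.

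The interferon-inducible GTPases, which attack the vacuoles of intracellular pathogens and respond strongly to interferon gamma, were low in KO libraries 1 and 2 for 4 of the 5 genes. Ifi47 (Irg47), on chromosome 11 (49076587 to 49096974, plus strand, GRCm38), was at 191, 185 and 205 CPM in WT and at 143, 124 and 196 CPM in KO. Igtp (Irgm3) was at 139, 141 and 127 CPM in WT and at 98.5, 111 and 142 CPM in KO. Irgm1 was at 90.1, 84.4 and 85.1 CPM in WT and at 68.0, 74.5 and 93.7 CPM in KO. In these 3 genes KO libraries 1 and 2 lay below all WT libraries, while KO library 3 lay among or above them. Gbp2, a guanylate-binding protein, was at 88.2, 103 and 88.7 CPM in WT and at 78.0, 67.6 and 93.7 CPM in KO and had KO libraries 1 and 2 lowest as well. Gbp3 did not show this, at 52.1, 38.1 and 41.3 CPM in WT and 42.3, 47.2 and 45.5 CPM in KO.

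Summed over the 5 GTPases, WT libraries 1 to 3 held 561, 551 and 547 CPM, and KO libraries 1 to 3 held 430.1, 423 and 570 CPM. The WT libraries were thus within a narrow range, while KO spread to both sides of it. The median log2 fold change of the 5 genes was -0.21, with 4 below 0. None passed, and the smallest adjusted p was 0.809 for Ifi47 by edgeR with Benjamini-Hochberg adjustment (log2 fold change -0.33, SE 0.16, 95% interval -0.70 to 0.03). For Igtp, Gbp2 and Irgm1 the log2 fold changes were -0.21, -0.22 and -0.14, with upper interval limits of 0.09, 0.07 and 0.14.

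The GTPase values depend on single KO libraries. Without KO library 1 the log2 fold changes of Igtp and Irgm1 were -0.12 and -0.06, and without KO library 2 those of Ifi47 and Gbp2 were -0.19 and -0.12. Leaving out KO library 3 had the opposite effect. Without it, 7 of the 44 members had an unadjusted p under 0.05, against 14.1% of the 13302 genes then tested. Ifi204 was higher in KO, and Ifi47, Igtp, Gbp2, Irgm1, Usp18 and Dtx3l were lower. The log2 fold changes without it were -0.56 for Ifi47, -0.40 for Igtp, -0.38 for Gbp2 and -0.30 for Irgm1, and 0 of 44 passed the adjusted threshold, with a smallest adjusted p of 0.0774 for Ifi47 by edgeR with Benjamini-Hochberg adjustment. Within KO, CD8 T cell marker sums were also lower in libraries 1 and 2 (1777 and 1287 CPM) than in library 3 (2594 CPM). In WT the CD8 T cell sums were 1975, 2693 and 2605 CPM beside GTPase sums of 561, 551 and 547 CPM. With the covariate of B cell, monocyte and dendritic cell markers, the log2 fold changes were -0.21 for Ifi47, -0.14 for Igtp, -0.12 for Gbp2 and -0.07 for Irgm1. The part of cell composition in these differences was not tested. Igtp overlaps Irgm2 by 162 bases on the same strand and Ifi47 overlaps Olfr56 by 111 bases, so some of their reads could have been divided. The deleted cluster lies on chromosome 11, as do 5 members: Igtp, Irgm1 and Ifi47 at 19.9, 29.2 and 29 Mb from it, and Dhx58 and Ifi35 at 22.6 and 23.4 Mb. The log2 fold changes of Dhx58 and Ifi35 were 0.11 and -0.02.

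**Figure D3:**
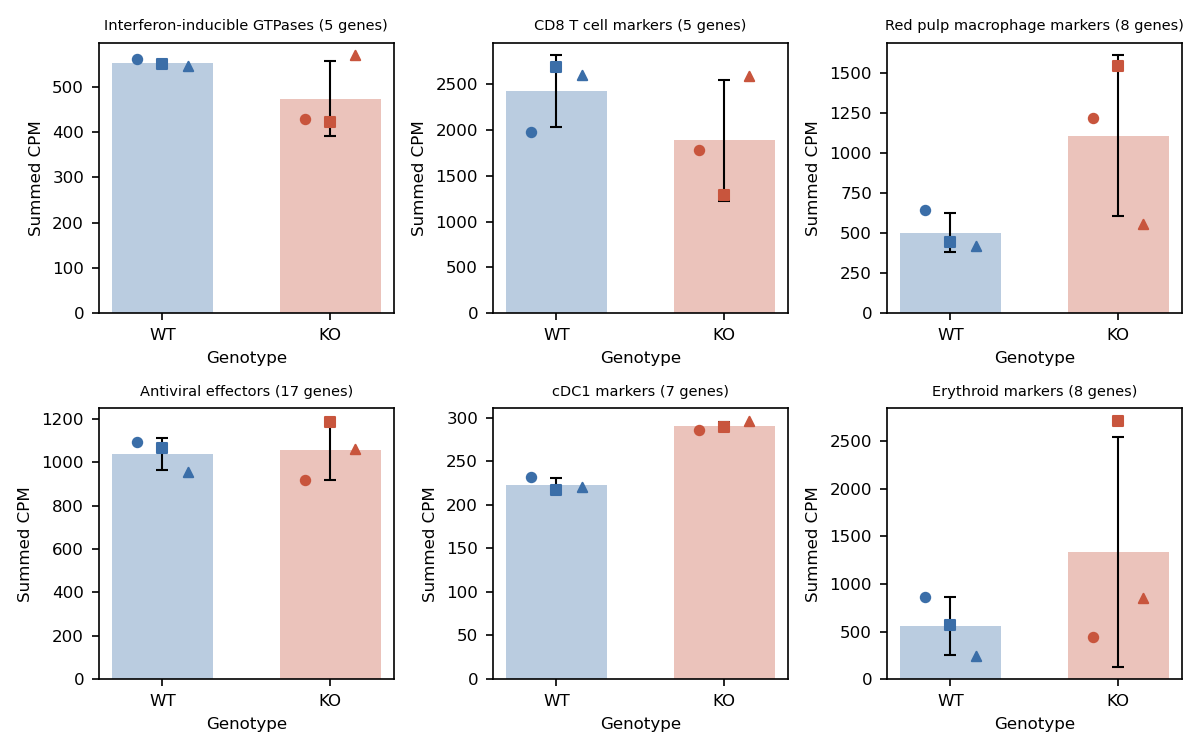
Summed CPM per library for the GTPases, the antiviral effectors and 4 lists of cell type markers. Bars give the mean and error bars the SD of 3 libraries per genotype, and circles, squares and triangles are libraries 1, 2 and 3. GTPase sums of KO libraries 1 and 2 (430.1 and 423 CPM) lie below the WT libraries (547 to 561) and that of KO library 3 (570) above.

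The 4 other induced genes were fitted above 0 in 3 cases, with a median log2 fold change of 0.23. Ifi27l2a was at 131, 109 and 70.0 CPM in WT and 102, 149 and 117 CPM in KO. Ifi44, the least abundant member, was at 8.79, 5.82 and 4.34 CPM in WT and 5.79, 10.5 and 7.67 CPM in KO. Both were lowest in WT library 3 and highest in KO library 2. Tor3a, a protein of the endoplasmic reticulum, was at 48.5, 33.1 and 35.2 CPM in WT and 47.9, 53.3 and 35.6 CPM in KO. Phf11b had means of 40.7 ± 5.96 CPM in WT and 40.0 ± 4.09 CPM in KO (SD, n = 3).

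Over the 44 genes together, single libraries stood out, most of all within the KO group. KO library 2 was the highest of the 6 for 22 of the 44 members (50%), beside 22.9% of all tested genes, and KO library 1 was the lowest for 20 (45.5%), beside 12.6%. WT library 3 was the lowest for 14 (31.8%), beside 17.5%. KO library 1 was highest for none, and WT library 1 lowest for none. The GTPases were an exception, with KO library 2 highest for 0 of 5 and lowest for 2. The median difference of the members from their own 6-library mean was 0.11, 0.00 and -0.12 in WT libraries 1 to 3, and -0.16, 0.17 and 0.07 in KO libraries 1 to 3, on the log2 scale. The 4 other induced genes gave the widest range, from -0.42 in WT library 3 to 0.39 in KO library 2, and the effectors ranged from -0.20 in KO library 1 to 0.27 in KO library 2. Over all tested genes the same medians lay within 0.006 of 0. TMM scaling places them near 0, so they do not show how far a small set of genes usually moves. The summed level of the 44 genes was 4402 ± 268 CPM in WT and 4505 ± 461 CPM in KO (SD, n = 3), a difference smaller than the spread within either genotype.

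**Figure D4:**
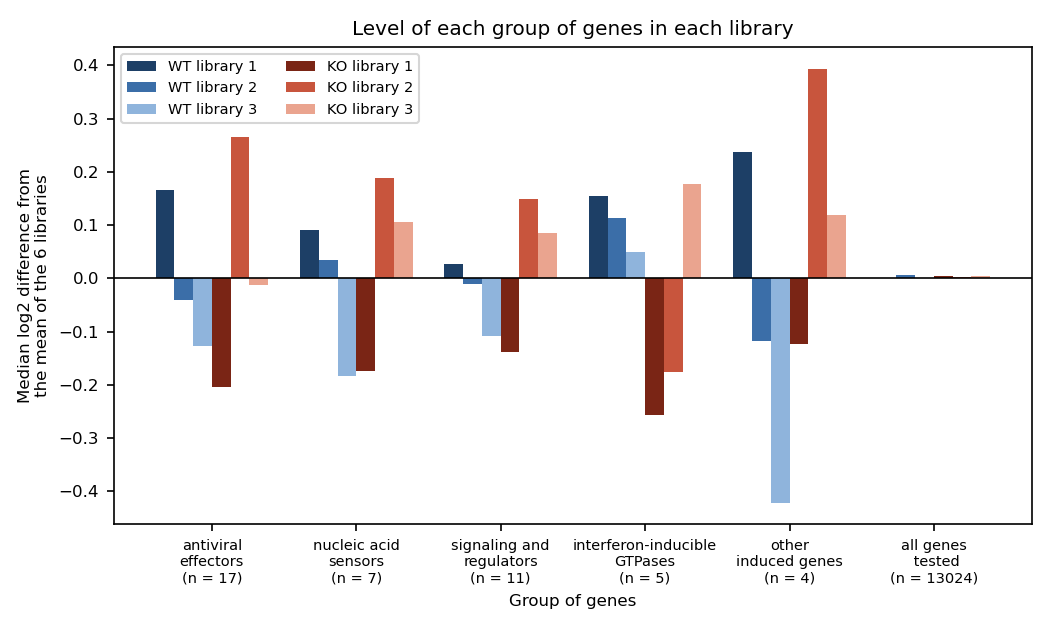
Median log2 difference of each role's genes from their mean over the 6 libraries, for each library, with all 13024 tested genes at the right. Effectors, sensors and regulators are lowest in KO library 1 or WT library 3 and highest in KO library 2, while the GTPases are low in both KO libraries 1 and 2.

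KO library 2 also held the most erythroid marker RNA, 2710 CPM beside 247 to 860 in the other libraries, and the lowest CD8 T cell sum. It was also the highest library for the markers of B cells (2697 CPM), monocytes (1777), neutrophils (1306) and red pulp macrophages (1545). The part of cell composition in the high effector levels of this library was not tested. How alike the profiles of the members were over the libraries depended on role. The median Pearson r between pairs of genes over the 6 libraries was 0.74 among the GTPases, 0.73 among the sensors and 0.52 among the effectors, but 0.08 between GTPases and effectors. These correlations share the same 6 libraries and are a description only. The median SD within a genotype was 0.19 on the log2 scale for the members, 0.19 for all tested genes and 0.15 for the 9767 genes in the same range of mean CPM. Ifi204 varied most (0.64), then Oasl2 (0.62) and Rsad2 (0.48), and Ifi35 (0.08) and Mx1 (0.08) least.

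Some levels are uncertain because the sequences have near copies. Oas1a shares 68.8% of its 31-base words with other genes, almost all with Oas1g, Phf11b shares 62.9%, mostly with Phf11a, and Ifit3 shares 61.8% with Ifit3b. Trim30a shares 11.7%, Isg15 12.8% and Ifit1 10.5%.

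Of the other genes of the pathway, 106 could be tested and 2 passed the adjusted threshold, where 0.0307% of all tested genes did. Of the 6 receptor genes, 11 genes of JAK-STAT and IRF signaling, 8 adaptors of nucleic acid sensing and 8 negative regulators, 0 passed the adjusted threshold, and 0, 2, 1 and 1 of them had an unadjusted p under 0.05 in edgeR, Irf8 higher and the other 3 lower, beside 4.14% of all tested genes higher and 2.11% lower. Irf8, a factor of myeloid and dendritic cells, was at 289, 224 and 260 CPM in WT and at 392, 385 and 287 CPM in KO, with a log2 fold change of 0.46 (SE 0.15, unadjusted p = 0.0141, adjusted p = 0.712 by edgeR with Benjamini-Hochberg adjustment). Only KO library 3 lay within the WT range. The marker sums of red pulp macrophages and cDC1, given above, were higher in the same libraries or in all KO libraries, and their part in this difference was not tested. Irf3, which switches on the interferon beta gene, was at 105, 99.6 and 101 CPM in WT and 86.7, 93.6 and 90.1 CPM in KO, a log2 fold change of -0.17. Tmem173 (STING), the adaptor of DNA sensing, was at 90.1, 103 and 106 CPM in WT and 86.7, 81.4 and 88.1 CPM in KO, a log2 fold change of -0.23. Socs3, an inhibitor of JAK signaling, was at 147, 132 and 139 CPM in WT and 129, 122 and 105 CPM in KO, also -0.23. For these 3 genes, named for their small p, KO lay below WT in every library. Of all tested genes, 11.5% were separated in either direction. None of the 3 passed (adjusted p = 0.786 each by edgeR with Benjamini-Hochberg adjustment).

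Of 77 further interferon-induced genes, 72 could be tested and 2 passed, and 4 were higher and 7 lower in KO at an unadjusted p under 0.05, beside 4.14% and 2.11% of all tested genes, while 34 were fitted above 0 and 38 below. Xaf1, which promotes cell death, was at 47.8, 47.2 and 38.7 CPM in WT and 108, 132 and 132 CPM in KO. Its log2 fold change was 1.47 (SE 0.12, adjusted p = 0.0079 by edgeR with Benjamini-Hochberg adjustment). Slfn8, a Schlafen gene, was at 126, 129 and 108 CPM in WT and 32.2, 35.6 and 36.0 CPM in KO, a log2 fold change of -1.8 (SE 0.10, adjusted p = 0.00115 by the same test). Both separated completely, in opposite directions, and Slfn8 has close paralogs that could have taken part of its reads. Both also lie on chromosome 11, at 5.77 Mb (Xaf1) and 4.94 Mb (Slfn8) from the deleted cluster. Slfn8 passed with each library left out, but Xaf1 did not pass without WT library 1, 2 or 3 (adjusted p = 0.0502, 0.0629 and 0.0656 by edgeR with Benjamini-Hochberg adjustment), with log2 fold changes of 1.52, 1.51 and 1.37. The median log2 fold change of the 72 genes was -0.02.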

How the data were processed

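The authors deposited, judging by the values, expected counts (estimates that may be fractions) per Ensembl gene for 6 RNA-seq libraries made with a SMARTER mRNA kit, with no scaling. The submitters' processing notes name GRCm38 and mm10. The aligner, counter and strand setting are not given in the sources used here. The unit was read from the values, of which 3527 to 4925 per library were not whole.

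Counts were rounded and analysed with edgeR 4.0.16 (R 4.3.3): TMM factors of 0.989 to 1.01, filterByExpr (count minimum 10, total minimum 15), and quasi-likelihood tests, Benjamini-Hochberg adjusted across 13024 genes, at 0.05 and without covariates. Symbols came from GENCODE M21, which holds 44121 of the 44678 identifiers. Levels per kb used merged exons. Per-library differences used log2(CPM + 0.5). Intervals are 95%. Depths of 8143971 to 8876570 counts limit precision to 0.342 to 0.372 CPM (3 counts). In simulated counts of the KO and WT comparison, 166 of 200 genes changed by 1 on the log2 scale were recovered (83% of 200, 12837 genes tested), with 9 false calls. At a change of 2, 200 of 200 were recovered (12852 genes tested), with 13 false calls. Each gene was drawn independently with the spread typical of its level. The recovery therefore need not hold for members that vary more, such as Ifi204 and Oasl2.

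The members, the lists of pathway genes and markers, and the tests were chosen with earlier results of these data known. Test values are given for members with an adjusted p under 0.05, then up to 15 with an unadjusted p under 0.05, and the 4 with the highest mean CPM, and for pathway lists for at most 3 genes each unless more passed. Ifi47, Igtp, Gbp2, Irgm1, Oasl2, Rsad2, Trim30a and the other members given by library were singled out after their values were seen, as was Ifi211. Alternatives were DESeq2 1.42.0, limma voom (3.58.1), other normalizations and filters, the replicate number as a block, a marker covariate, and each library left out. Mx1, Mx2, Oas2, Dhx58, Zbp1, Ifi204, Usp18, Parp9, Parp14, Rtp4, Ifi27l2a and Tor3a had no promoter window in the table used. The values of 1 pathway gene are not reported here.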

Additional observations from a re-analysis of the deposited data

How the results depend on the processing

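The count of interferon-stimulated genes with an adjusted p under 0.05 was 0 under all alternatives run, and the median log2 fold change of the 44 genes stayed between -0.02 and 0.09 with each library left out. The count with an unadjusted p under 0.05, 2 in the reported comparison, was 1 under DESeq2, 1 with upper-quartile normalization and 1 with the marker covariate (Ifi204 each time), stayed at 2 without a filter on low counts but as Ifi204 higher and Ifi47 lower, without Trafd1, and lay between 0 and 7 with each library left out: 3 (6.82%) without WT library 1 beside 9.25% of all tested genes, 0 without WT library 2, WT library 3 or KO library 2 beside 3.51%, 3.91% and 3.18%, 2 (4.55%) without KO library 1 (Oas2 and Trim30a) beside 4.16%, and 7 (15.9%) without KO library 3 beside 14.1%. The count of genes whose ranges do not overlap lay between 2 and 8 with each library left out (4.55% to 18.2%, beside 17.3% to 32.1% of all tested genes), and was below the share of all genes each time. The summed difference of KO over WT lay between -101 and 316 CPM. The pathway genes called, 2 in the reported comparison, lay between 1 and 4, with Xaf1 not called without WT library 1, 2 or 3 and Tgtp2 and Ifi208 added without KO library 3. Over all tested genes, 4 were called in the reported comparison, 56 under DESeq2, 3 under limma voom, 12 without a filter on low counts, 12 with the marker covariate and 94 without KO library 3. Oasl2 reversed to -0.30 and Rsad2 to -0.11 with the marker covariate, and with each library left out they ranged from -0.29 to 0.52 and from -0.26 to 0.38. Samd9l and Sp100, whose fitted changes were near 0, took the values -0.00099 and -0.00035 under DESeq2, -0.00093 and -0.00032 with DESeq2 size factors, -0.0087 and -0.0079 with upper-quartile normalization, and -0.018 and -0.018 without a filter, and ranged from -0.10 to 0.051 and from -0.084 to 0.036 with each library left out. The cause of these reversals was not tested.

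The libraries share replicate numbers, and whether the numbers pair them could not be settled with 3 libraries a group. The correlation of deviations from the group means over 13024 genes was -0.0101, -0.199 and 0.111 for libraries with the same number. For the others it was -0.265 to 0.293. With the replicate number as a block, 0 of the 44 genes passed the adjusted threshold, 2 had an unadjusted p under 0.05 (Ifi204 higher and Ifi47 lower, 4.55% beside 5.26% of all tested genes), the median log2 fold change was 0.02, and 9 of all tested genes were called. With 3 libraries a group, the 95% interval reached past a 1.5-fold change for 11 of the 44 genes.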
